A study of Homo sapiens with 18 samples.

Results

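The 44 genes described here are interferon-stimulated genes, matched by their symbols among the 60642 gene rows of a table of RNA-seq read counts. They comprise 4 transcription factors of the pathway, 3 sensors of foreign RNA, 4 IFIT and 4 OAS genes, 10 further antiviral effectors, 5 genes of the ISG15 system, 3 IFITM genes, the PARP9, PARP14 and DTX3L group, 2 guanylate-binding proteins and 6 further genes of the interferon signature. All 44 symbols were found. RNA was sequenced from 2 human colorectal cancer cell lines in 18 libraries, 3 per group. SW620, a line from a lymph node metastasis, received 10 µM RepSox or the solvent DMSO for 24 h. HT-29 iZEB1 is an HT-29 line in which doxycycline (DOX, 1 µg/ml) switches on a copy of ZEB1, a transcription factor of epithelial-mesenchymal transition, and RepSox inhibits the kinase of the type I receptor for transforming growth factor beta. The HT-29 iZEB1 groups received DOX and RepSox, DOX and DMSO, RepSox without DOX (called RepSox alone), or neither (called DMSO alone). RepSox was again given at 10 µM for 24 h, and the labels give 24 h of DOX in one place and 48 h in another. All HT-29 cells analysed here carry the inducible gene, so an action of DOX itself cannot be told apart from that of induced ZEB1. The labels do not say whether the 3 libraries of a group came from separate cultures or whether the HT-29 iZEB1 line is a single clone, so the p-values take in the spread among libraries and nothing beyond it.

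Interferons are secreted proteins that warn cells of viral infection. Type I and type III interferons bind their receptors, JAK kinases are activated, and STAT2 joins a STAT partner and IRF9 to form the factor ISGF3, which binds the interferon-stimulated response element (ISRE) in front of its target genes. Interferon gamma acts mainly through the gamma-activated sequence (GAS). Many target genes encode the sensors and transcription factors of the pathway itself, and many tumour lines keep a part of the programme active with no virus present.

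Libraries held between 36512000 and 39793000 counts. ZEB1 checked the labels: it had 14.7, 15.9 and 17.4 CPM with DOX and RepSox, against 372, 385 and 376 CPM with DOX and DMSO, and 5.04, 5.38 and 5.73 CPM with RepSox alone, against 7.90, 7.38 and 10.4 CPM with DMSO alone. CPM are counts relative to the size of the library, here on one scale set across all 18 libraries. ZEB1 was therefore high only in the libraries with DOX and DMSO, among the 4 HT-29 iZEB1 groups, and RepSox libraries with DOX carried little of it. The epithelial markers EPCAM, KRT8, KRT18 and VIL1 were at 1 CPM or more in every group. Of 9 epithelial markers, 5 to 7 reached that level. Among leukocyte markers, PTPRC, CD3E and TYROBP averaged at most 0.167 CPM in any group. Over the HT-29 iZEB1 groups, LYZ averaged 1196 to 1759.7 CPM and CD14 5.13 to 6.27 CPM, and in SW620 LYZ was at 1 CPM or more and CD14 below it. Of 6 fibroblast markers LUM and PDGFRB reached 1 CPM in SW620 and none in HT-29 iZEB1, and of 5 endothelial ones PECAM1 did in SW620 and ESAM in HT-29 iZEB1.

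One library stood apart in the level of these genes. In the group with DOX and DMSO, replicate 2 held the highest value for 40 of the 41 members that averaged 5 CPM or more there. Over all genes at that level it held the highest value for 5058 of 10580. The highest library exceeded the lowest by 1.5 times or more for 33 of these 41 members (80.5%), against 1.77% of all genes at that level, and the median of that ratio was 1.78. Summed over the 44 genes, the 3 libraries of this group held 4433, 7585 and 4020 CPM. The ratio of replicate 2 to the mean of replicates 1 and 3 was 3.73 for IFITM1, 3.12 for IFITM3 and 3.10 for UBE2L6, but 1.08 for GBP2 and 0.908 for IRF9. The IFITM genes block virus entry and UBE2L6 is the enzyme that conjugates ISG15, whereas GBP2 and IRF9 differed little between the 3 libraries. ZEB1 was at nearly the same level in all 3. Mitochondrially encoded mRNAs made up 4.14%, 2.75% and 5.25% of the counts in replicates 1, 2 and 3, lowest where the interferon-stimulated genes were highest. With DMSO alone the share was 4.53%, 3.97% and 4.89% and with RepSox alone 2.30%, 3.66% and 3.86%, and in both of these groups replicate 3 was highest in this share and in the median deviation of the members. The part of these RNAs in the result was not tested. A weaker spread was seen with DMSO alone, where 9 of 39 members (23.1%) differed by 1.5 times or more, against 0.666% of all genes, with replicate 3 highest for 32 and replicate 1 lowest for 34. Of all 10515 genes at 5 CPM or more there, replicate 3 was highest for 3760 and replicate 1 lowest for 2676. At that level, with DOX and RepSox 2 of 36 members (5.56%) differed by 1.5 times or more, against 1.84% of all genes. With RepSox alone 1 of 36 (2.78%) did, against 0.489%. In the SW620 groups none of 20 did, against 0.253% with RepSox and 0.252% with DMSO. Counts of called members in comparisons that use the group with DOX and DMSO are therefore given with and without its replicate 2. That library was picked by the values of these same members, and leaving it out keeps replicates 1 and 3 of the group. Calls that appear only without it depend on that choice, and their adjusted p-values take no account of it. For single genes the value without it is given for some only.

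**Figure D1:**
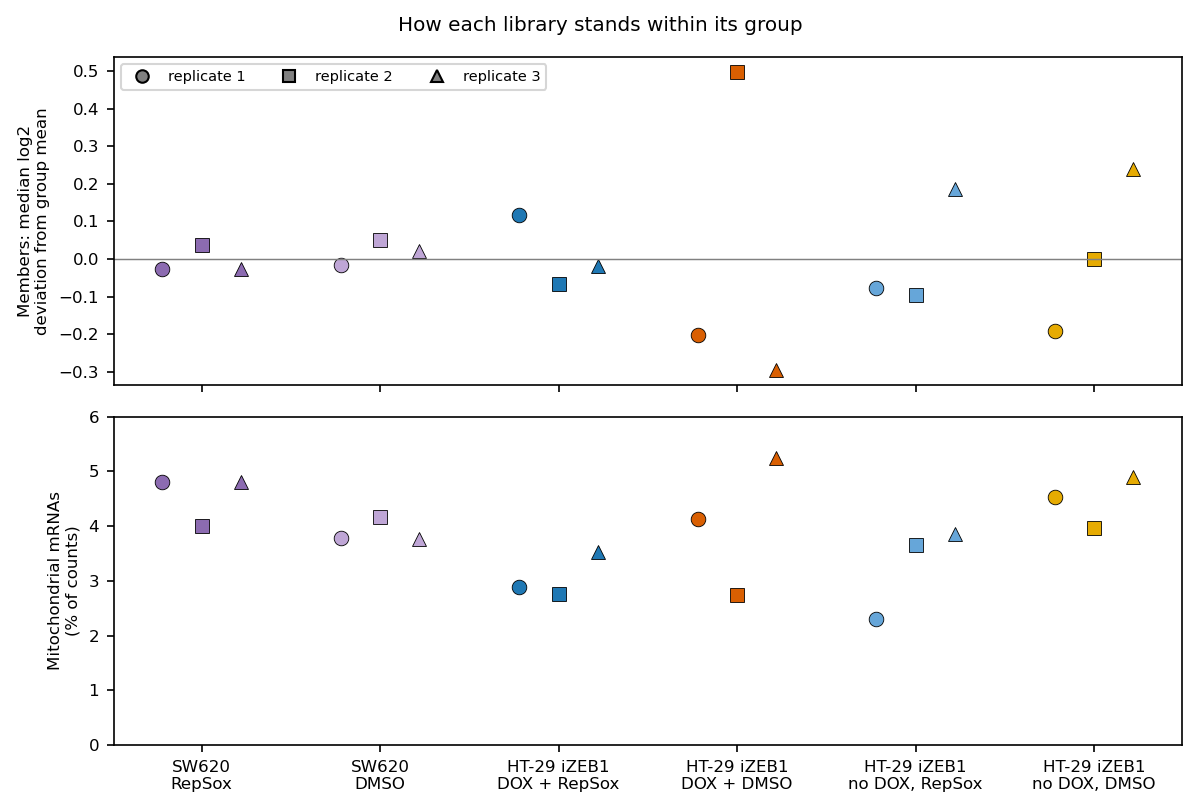
Upper plot, median over the members at 5 CPM or more of the log2 deviation of each library from the mean of its group; lower plot, share of each library's counts from mitochondrially encoded mRNAs, in percent. Each point is 1 library and its shape gives the replicate number; replicate 2 with DOX and DMSO lies at a median of 0.50, whereas replicates 1 and 3 of that group lie at -0.20 and -0.30.

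Because ISGF3 acts through the ISRE, the promoters were searched for its core, 2 copies of GAAA with any 2 bases between them, on both strands, from 250 bases before to 50 after each RefSeq gene start (build GRCh38.p14). Of the 44 members 35 had an entry, with 46 promoters in all. The core was in 28 of the 46 (60.9%), against 3.57% of all 35116 promoters in the table, and 24 of the 35 members had it in at least 1 promoter. The GAS core TTCNNNGAA, searched in the same windows, was in 11 of the 46 promoters (23.9%), against 7.66% of all promoters, and was found for 10 of the 35 members. The letters of the 2 cores can overlap. A match describes the letters only. IRF7, IFIT2, OAS2, OASL, MX2, TRIM22, USP18, IFITM2 and GBP2 had no entry. The following are the stretches before the gene start that carry an ISRE core and hold no exonic base in the GENCODE 29 annotation. Capitals mark the ISRE core. They read 5′ to 3′ along the gene's own strand.
ISG15 (chr1:1013369-1013414, plus strand): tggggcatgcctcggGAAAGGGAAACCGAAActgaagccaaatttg
IFIT1 (chr10:89392492-89392544, plus strand): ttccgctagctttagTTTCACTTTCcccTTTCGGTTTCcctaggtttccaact
RSAD2 (chr2:6877617-6877656, plus strand): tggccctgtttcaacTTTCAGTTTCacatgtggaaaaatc
SAMD9 (chr7:93118091-93118130, minus strand): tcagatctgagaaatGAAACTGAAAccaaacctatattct
HERC5 (chr4:88456979-88457069, plus strand): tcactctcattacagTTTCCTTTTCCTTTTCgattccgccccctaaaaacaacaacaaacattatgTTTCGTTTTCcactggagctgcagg
IFI6 (chr1:27672261-27672363, minus strand): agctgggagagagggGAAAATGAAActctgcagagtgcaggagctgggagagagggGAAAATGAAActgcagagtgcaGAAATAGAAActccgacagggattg
IFI27 (chr14:94110613-94110665, plus strand): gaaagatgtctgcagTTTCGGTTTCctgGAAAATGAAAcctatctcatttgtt
IFI44 (chr1:78649756-78649795, plus strand): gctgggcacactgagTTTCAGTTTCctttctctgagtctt
IRF1 had no ISRE core in its window but a GAS core, in capitals here.
IRF1 (chr5:132490874-132490912, minus strand): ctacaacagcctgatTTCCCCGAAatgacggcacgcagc
HERC5 and IFI6 held 3 cores each, ISG15, IFIT1 and IFI27 held 2, and RSAD2, SAMD9 and IFI44 held 1. None of these stretches overlaps an exon of the GENCODE 29 annotation, because those that do were not printed. Exonic bases made up 46 of 46 in the stretch of BST2, 57 of 57 in that of IFITM3 and 122 of 158 in that of OAS3. The ratio of replicate 2 with DOX and DMSO to the other 2 libraries had a median of 1.65 over the 24 members with an ISRE core (range 1.24 to 3.73) and 1.64 over the 11 without (range 0.908 to 3.10); the difference was not tested.

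**Figure D2:**
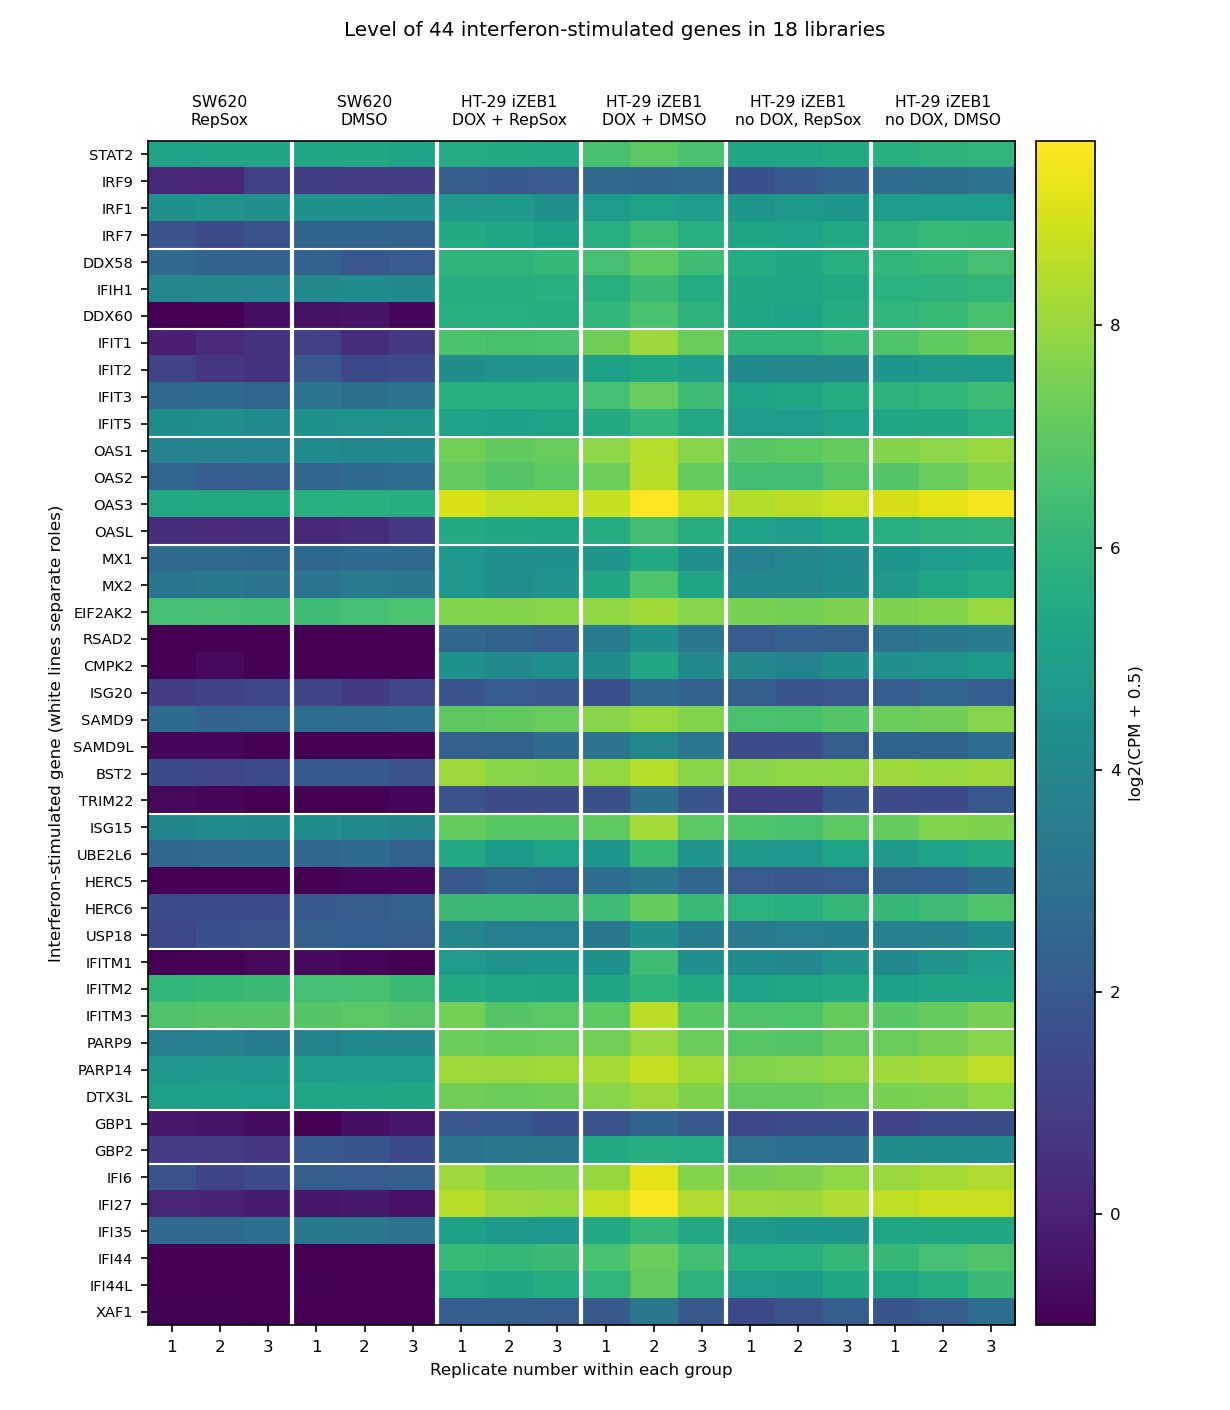
Level of each of the 44 members, as log2(CPM + 0.5), in each of the 18 libraries; columns are grouped by cell line and treatment and rows by role. The 2 SW620 groups are dark for most members, and replicate 2 with DOX and DMSO is the brightest HT-29 iZEB1 column for most rows.

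RepSox lowered many of these genes in HT-29 iZEB1, both with and without DOX. Each library is RNA of many cells, so fewer cells expressing a gene and less RNA per cell cannot be told apart. With DOX, 27 of the 44 members were lower in RepSox than in DMSO libraries at an adjusted p below 0.05 in edgeR's quasi-likelihood test, with Benjamini-Hochberg adjustment over all genes tested, which is the test behind every adjusted p given here unless another is named, and none was higher. In this comparison 52.2% of all 16978 genes tested were called, 25.5% lower and 26.8% higher. The median log2 fold change of the members was -0.61, against -0.01 over all genes. Without DOX, again 27 fell and none rose, where 25.3% of all genes were called, 12.8% lower and 12.5% higher, and the median was -0.62, against -0.01. Between them, 21 members fell in both, 77.8% of each list. The share of all genes lower in both was not computed, so this overlap has no background beside it. The 2 comparisons share no library, but they come from the same fit and its estimate of the spread. GBP2 fell most in both, also when replicate 2 with DOX and DMSO was left out. Without replicate 2 with DOX and DMSO, the first comparison had 20 members lower and 1 higher (UBE2L6), with a median of -0.26, and 24.1% of all genes were then called lower and 26% higher.

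DOX raised fewer of the genes, and 7 of the 14 calls were lost without 1 library. With DMSO in both arms, 14 members were higher with DOX and none was lower, where 40.4% of all genes were called, 19.2% higher and 21.1% lower; the median was 0.23, against 0.00 over all genes. Without replicate 2 with DOX and DMSO, 7 were higher (STAT2, IFIT2, IFIT3, SAMD9, SAMD9L, GBP1 and GBP2) and 10 were lower (IRF7, IFIH1, OAS3, MX1, CMPK2, BST2, ISG15, UBE2L6, USP18 and IFI6), with 18.6% of all genes called higher and 22% lower, and the median was -0.06. Since the library left out was the one highest in these members, the 10 lower calls are no independent result. The count of 14 was 6 without replicate 1 with DMSO alone, 9 without its replicate 2, and 22 without replicate 3 with DOX and DMSO, all of them higher. For these counts the shares over all genes are not given here.

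**Figure D3:**
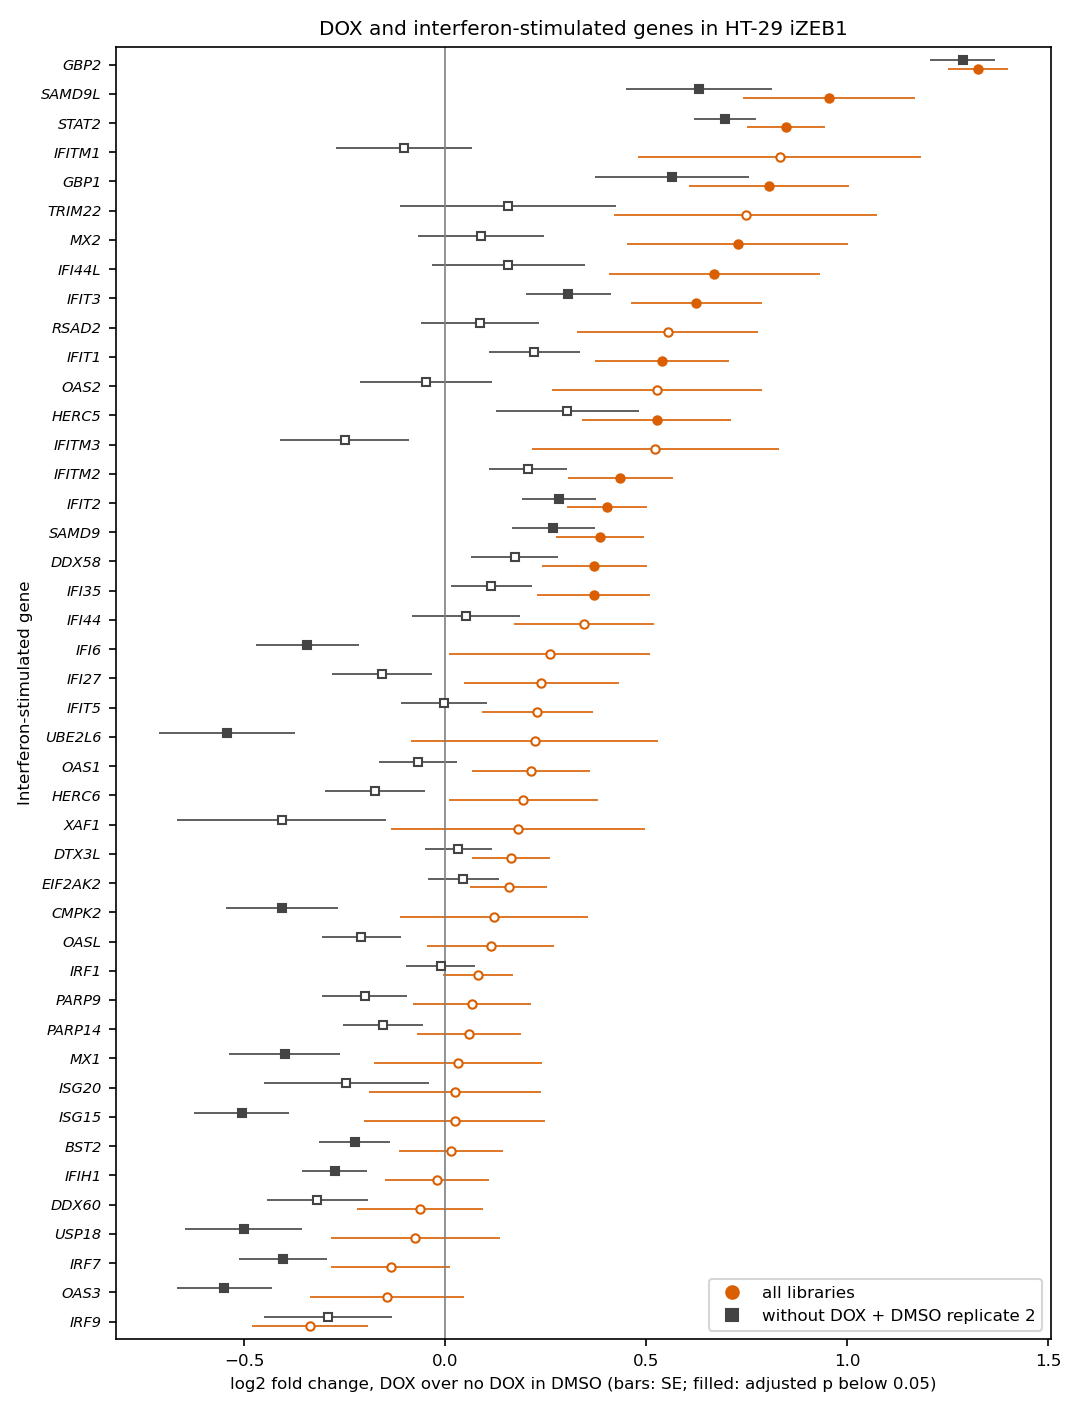
Log2 fold change of each member, DOX and DMSO over DMSO alone, in HT-29 iZEB1, from all libraries (circles) and without replicate 2 with DOX and DMSO (squares); bars are standard errors and filled symbols have an adjusted p below 0.05. GBP2 and STAT2 stay to the right of 0 in both, whereas ISG15, UBE2L6 and OAS3 move to the left without that library.

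Under RepSox, DOX moved none of the 44 genes past the threshold in edgeR's quasi-likelihood test, in a comparison in which 0.477% of all genes were called, 0.0942% higher and 0.383% lower. ZEB1 itself averaged 16.0 CPM with DOX and RepSox and 5.38 CPM with RepSox alone, against 378 CPM with DOX and DMSO. The comparison therefore holds little induced ZEB1, and the part of ZEB1 in this and the next result was not tested. At an unadjusted p below 0.05, 13 members were higher and none lower, where 14.1% of all genes were below it in either direction, and DESeq2 called 2 higher, IFIT2 (log2 0.42, adjusted p = 0.0169) and SAMD9 (log2 0.42, adjusted p = 0.0269). The median was 0.27, against 0.00 over all genes, and 42 of the 44 fold changes were positive. The test of whether RepSox acted differently with and without DOX called 2 members, both with a larger fall under DOX, where 9.61% of all genes were called in that direction and 13% in the other: GBP2, with a log2 difference of -1.01 ± 0.11 (SE, adjusted p = 3.20e-06), and STAT2, with -0.70 ± 0.14 (SE, adjusted p = 0.00106). Without replicate 2 with DOX and DMSO both were still called, at -0.97 ± 0.12 (SE, adjusted p = 4.49e-06) and -0.55 ± 0.11 (SE, adjusted p = 0.000575), and 14 further members were called in the opposite direction, where 14% of all genes were. Those were IRF7, IFIH1, DDX60, OAS3, OASL, MX1, CMPK2, ISG15, UBE2L6, HERC6, USP18, PARP9, PARP14 and IFI6. These 14 calls, too, depend on a library picked by the values of the members.

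In SW620 the same comparison of RepSox with DMSO could be made for 33 members. The other 11 (DDX60, RSAD2, CMPK2, SAMD9L, TRIM22, HERC5, IFITM1, GBP1, IFI44, IFI44L and XAF1) had too few counts in this line to pass the filter. Of the 33, 18 fell and 1 rose, DDX58, where 19.5% of all 17147 genes tested were called, 9.24% lower and 10.2% higher; the median was -0.26, against -0.01 over all genes. The filter kept members by their level in these libraries, so the count describes those expressed here. Of the 18, 13 also fell in HT-29 iZEB1 without DOX, which is 72.2% of the SW620 list and 48.1% of the HT-29 list. For the overlaps between the lines, too, the share over all genes was not computed. With RepSox 10 members fell in all 3 comparisons: IRF7, IFIT2, IFIT3, IFIT5, OAS1, SAMD9, PARP9, DTX3L, GBP2 and IFI35. ISG20, UBE2L6 and IFITM3 were called lower in none of the 3. CMPK2, TRIM22, IFITM1, GBP1 and XAF1, which were not tested in SW620, were called lower in neither HT-29 iZEB1 comparison.

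**Figure D4:**
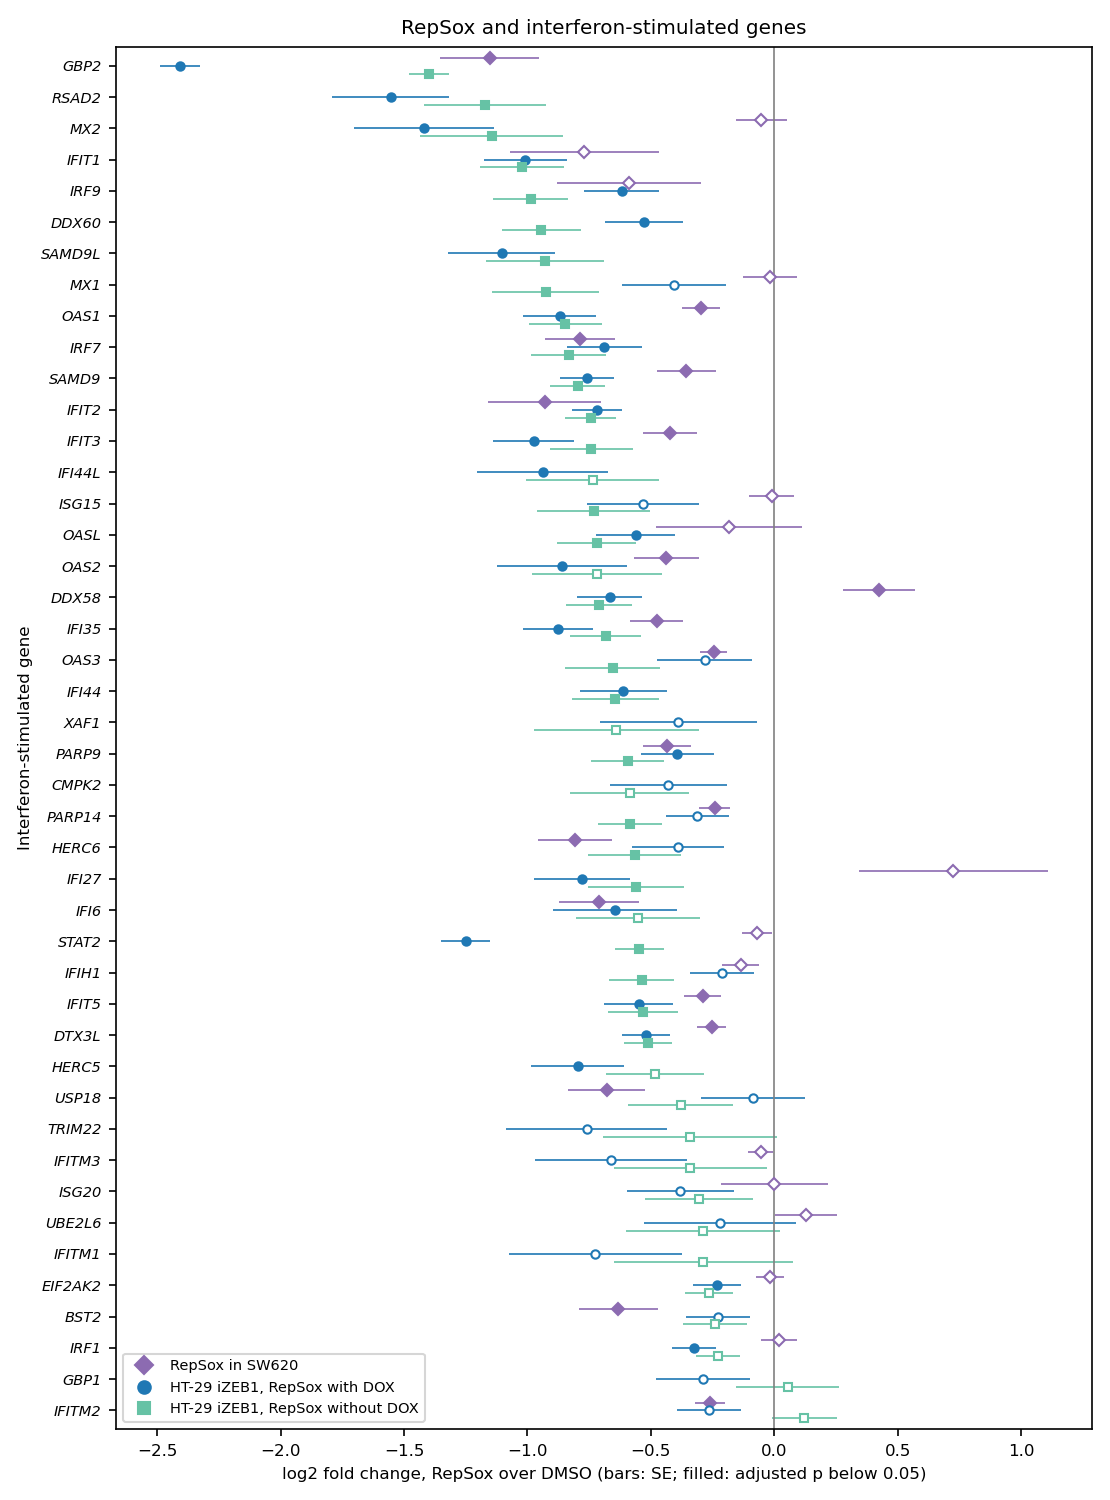
Log2 fold change of each member, RepSox over DMSO, in SW620 (diamonds), in HT-29 iZEB1 with DOX (circles) and without DOX (squares); bars are standard errors, filled symbols have an adjusted p below 0.05, and members not tested in SW620 have no diamond. Most symbols lie left of 0; GBP2 lies farthest left, and DDX58 in SW620 is the filled symbol to the right.

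By median, the members differed more between the lines than in any treatment comparison. With DMSO alone, 42 of the 44 members were lower in SW620 than in HT-29 iZEB1 and 1 was higher, IFITM2, where 76.6% of all 19107 genes tested were called, 36.5% lower and 40.1% higher. The median was -3.63 on the log2 scale, against 0.06 over all genes. It was the same with the 5 members at 0 counts in SW620 with DMSO set to their lower bounds. These bounds also lie below the median, so the change could not have moved it. IFITM3, another restriction factor of virus entry, was not called.

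Among the transcription factors, STAT2, the subunit that gives ISGF3 its activation domain, had the largest fall with RepSox under DOX and the one rise called with DOX in DMSO. STAT2 had 47.2, 44.7 and 42.7 CPM with DOX and RepSox, against 94.2, 127 and 96.8 CPM with DOX and DMSO, and 38.8, 39.7 and 43.6 CPM with RepSox alone, against 53.7, 59.3 and 64.4 CPM with DMSO alone. The libraries with DOX and DMSO lay above all others and the RepSox groups lay below the DMSO groups with no overlap. Its log2 fold change was -1.25 ± 0.10 (SE, adjusted p = 5.08e-09) for RepSox with DOX, -0.55 ± 0.10 (SE, adjusted p = 0.000485) for RepSox without DOX and 0.85 ± 0.10 (SE, adjusted p = 1.19e-06) for DOX in DMSO. Without replicate 2 with DOX and DMSO, the first was -1.10 ± 0.08 (SE, adjusted p = 3.63e-10) and the last 0.70 ± 0.08 (SE, adjusted p = 3.67e-07). STAT2 lies at chr12:56341597-56360155 on the minus strand. IRF9, the DNA-binding subunit of ISGF3, was present at 1.89 RPKM (CPM per kilobase of exon) with DMSO alone, against 9.68 RPKM for STAT2. IRF9 had 3.95, 3.51 and 3.69 CPM with DOX and RepSox, against 5.99, 5.31 and 5.70 CPM with DOX and DMSO, and 2.76, 3.51 and 4.65 CPM with RepSox alone, against 6.51, 7.21 and 7.83 CPM with DMSO alone. The RepSox and DMSO groups did not overlap, and IRF9 fell by 0.62 ± 0.15 (SE, adjusted p = 0.00218) with DOX and by 0.99 ± 0.15 (SE, adjusted p = 0.000104) without; DOX in DMSO gave -0.34 ± 0.14 (SE, adjusted p = 0.0728), which did not pass. Reads of IRF9 are uncertain where its exons overlap those of AL136295.5. IRF7, a factor that amplifies the type I response, had 44.7, 37.7 and 32.5 CPM with DOX and RepSox, against 50.8, 82.0 and 51.1 CPM with DOX and DMSO, and 37.2, 35.1 and 42.2 CPM with RepSox alone, against 59.4, 74.3 and 69.1 CPM with DMSO alone. It fell with RepSox by 0.69 ± 0.15 (SE, adjusted p = 0.000810) with DOX, by 0.42 ± 0.11 (SE, adjusted p = 0.00288) there when replicate 2 with DOX and DMSO was left out, and by 0.83 ± 0.15 (SE, adjusted p = 0.000496) without DOX. In both pairs the RepSox libraries lay below every DMSO library. DOX in DMSO gave -0.14 ± 0.15 (SE, adjusted p = 0.502) over all libraries and -0.40 ± 0.11 (SE, adjusted p = 0.00546) without replicate 2, a fall that passed only there. IRF1, a target of interferon gamma through the GAS shown above, varied little. IRF1 had 26.7, 25.7 and 22.1 CPM with DOX and RepSox, against 28.2, 34.7 and 29.7 CPM with DOX and DMSO, and 24.5, 26.4 and 24.6 CPM with RepSox alone, against 29.7, 30.0 and 28.1 CPM with DMSO alone. It fell with RepSox under DOX by 0.32 ± 0.09 (SE, adjusted p = 0.00452) and its fold change without DOX was -0.23 ± 0.09 (SE, adjusted p = 0.0687).

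**Figure D5:**
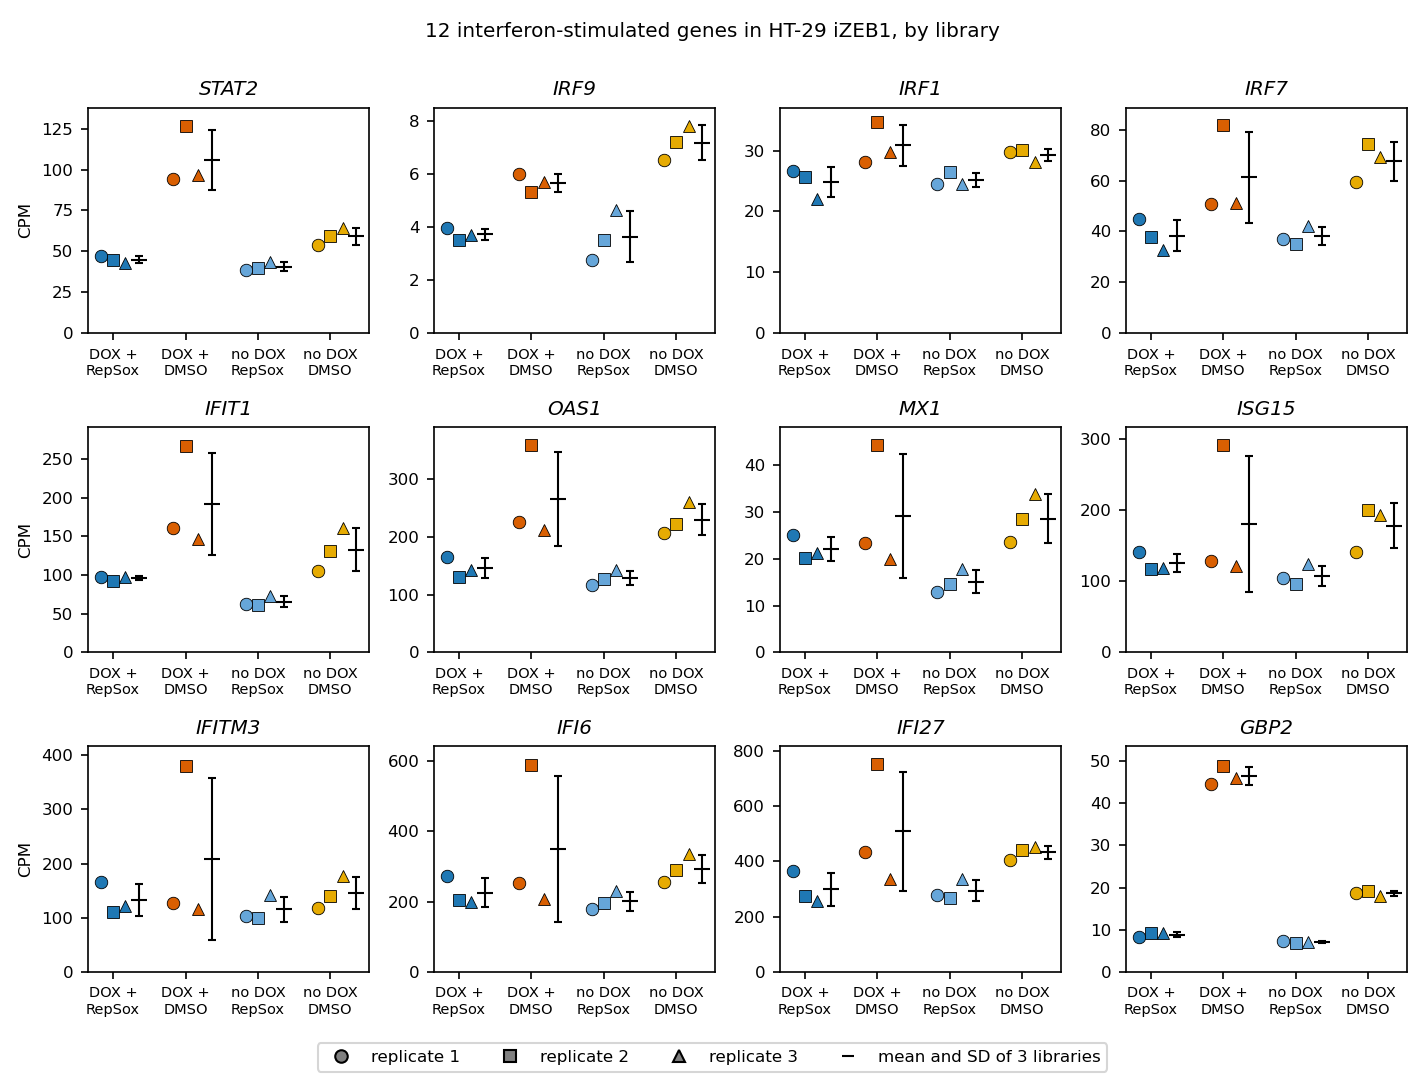
Level in CPM of 12 members in the 4 HT-29 iZEB1 groups; each symbol is 1 library, shaped by replicate number, and the bar beside each group is its mean with SD over 3 libraries. GBP2 is tight within groups. With DOX and DMSO, replicate 2 lies above the other libraries for STAT2, and it spreads IFITM3, IFI6 and ISG15 more.

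The RNA sensors recognise viral RNA in the cytoplasm. DDX58, which encodes RIG-I, had 60.3, 59.9 and 67.8 CPM with DOX and RepSox, against 90.3, 124 and 82.1 CPM with DOX and DMSO, and 46.4, 41.5 and 53.5 CPM with RepSox alone, against 66.4, 73.4 and 90.4 CPM with DMSO alone. RepSox libraries lay below DMSO libraries in both pairs, with falls of 0.67 ± 0.13 (SE, adjusted p = 0.000315) with DOX and 0.71 ± 0.13 (SE, adjusted p = 0.000679) without. DOX in DMSO gave a rise of 0.37 ± 0.13 (SE, adjusted p = 0.0302); the call was lost when replicate 2 with DOX and DMSO or replicate 1 or 2 with DMSO alone was left out, at 0.17 to 0.34 and adjusted p-values of 0.101 to 0.219. DDX60, a helicase that promotes RIG-I signalling, had 52.6, 51.2 and 50.1 CPM with DOX and RepSox, against 66.1, 97.3 and 57.2 CPM with DOX and DMSO, and 37.5, 35.2 and 48.0 CPM with RepSox alone, against 63.8, 73.5 and 93.8 CPM with DMSO alone. It fell by 0.94 ± 0.16 (SE, adjusted p = 0.000274) without DOX, where the groups did not overlap, and by 0.53 ± 0.16 (SE, adjusted p = 0.00904) with DOX; in the comparison with DOX the call was lost without replicate 2 with DOX and DMSO, at -0.27 and an adjusted p of 0.0779. IFIH1, which encodes MDA5, fell with RepSox alone by 0.54 ± 0.13 (SE, adjusted p = 0.00507), and with DOX its fold change was -0.21 ± 0.13 (SE, adjusted p = 0.180).

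IFIT proteins bind viral RNA that lacks the marks of the host, and their genes lie side by side on chromosome 10. All 4 fell with RepSox, with and without DOX. IFIT1, whose promoter holds the pair of ISRE cores printed above, had 97.2, 92.5 and 97.7 CPM with DOX and RepSox, against 160.5, 267 and 147 CPM with DOX and DMSO, and 62.0, 61.1 and 73.4 CPM with RepSox alone, against 105, 131 and 161 CPM with DMSO alone. Every RepSox library was below every DMSO library of its pair, and the falls were 1.01 ± 0.17 (SE, adjusted p = 5.65e-05) with DOX and 1.02 ± 0.17 (SE, adjusted p = 0.000224) without. Leaving out replicate 2 with DOX and DMSO made the fold change with DOX -0.69 ± 0.11 (SE, adjusted p = 3.34e-05). For DOX in DMSO the rise was 0.54 ± 0.17 (SE, adjusted p = 0.0145); the call was lost when replicate 2 with DOX and DMSO or replicate 1 with DMSO alone was left out, at 0.22 to 0.40 and adjusted p-values of 0.0939 to 0.130. IFIT3, a partner of IFIT1, had 53.5, 53.3 and 54.2 CPM with DOX and RepSox, against 87.6, 146 and 80.6 CPM with DOX and DMSO, and 35.8, 39.3 and 47.9 CPM with RepSox alone, against 59.2, 65.3 and 80.0 CPM with DMSO alone. It fell by 0.97 ± 0.16 (SE, adjusted p = 6.43e-05) with DOX and by 0.74 ± 0.17 (SE, adjusted p = 0.00299) without. With replicate 2 with DOX and DMSO left out, its fold change for RepSox with DOX was -0.66 ± 0.11 (SE, adjusted p = 3.11e-05). DOX in DMSO raised it by 0.62 ± 0.16 (SE, adjusted p = 0.00477), or 0.31 ± 0.11 (SE, adjusted p = 0.0264) without replicate 2. IFIT2, which binds RNA and can promote cell death, had 18.5, 22.2 and 22.9 CPM with DOX and RepSox, against 33.0, 40.1 and 30.9 CPM with DOX and DMSO, and 16.6, 15.3 and 15.5 CPM with RepSox alone, against 24.2, 26.8 and 27.9 CPM with DMSO alone. Its 4 groups were each tight: RepSox libraries lay below DMSO libraries, and libraries with DOX and DMSO lay above those with DMSO alone. The falls were 0.72 ± 0.10 (SE, adjusted p = 7.90e-06) with DOX and 0.74 ± 0.10 (SE, adjusted p = 3.73e-05) without, and the rise with DOX in DMSO was 0.40 ± 0.10 (SE, adjusted p = 0.00324). IFIT2 shares exonic bases with LIPA on the opposite strand. IFIT5 fell by 0.55 ± 0.14 (SE, adjusted p = 0.00273) with DOX, by 0.32 ± 0.11 (SE, adjusted p = 0.0176) there when replicate 2 with DOX and DMSO was left out, and by 0.53 ± 0.14 (SE, adjusted p = 0.00931) without DOX; in the comparison without DOX the call was lost when replicate 2 with RepSox alone or replicate 3 with DMSO alone was left out, at -0.47 to -0.38 and adjusted p-values of 0.0517 to 0.0738.

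OAS enzymes make the messenger that activates RNase L against viral RNA. OAS1 had 165, 131 and 143 CPM with DOX and RepSox, against 226, 359 and 211 CPM with DOX and DMSO, and 117, 126 and 142 CPM with RepSox alone, against 207, 223 and 259.6 CPM with DMSO alone. RepSox and DMSO libraries did not overlap in either pair, with falls of 0.87 ± 0.15 (SE, adjusted p = 6.64e-05) with DOX and 0.85 ± 0.15 (SE, adjusted p = 0.000345) without. Leaving out replicate 2 with DOX and DMSO made the fold change with DOX -0.59 ± 0.10 (SE, adjusted p = 3.16e-05). With DOX and DMSO, replicates 1 and 3 lay within the range of the libraries with DMSO alone and replicate 2 above it, and DOX in DMSO gave 0.21 ± 0.15 (SE, adjusted p = 0.267). OASL fell in both, by 0.56 ± 0.16 (SE, adjusted p = 0.00631) with DOX, by 0.24 ± 0.10 (SE, adjusted p = 0.0482) there when replicate 2 with DOX and DMSO was left out, and by 0.72 ± 0.16 (SE, adjusted p = 0.00288) without DOX. OAS2 fell with DOX by 0.86 ± 0.26 (SE, adjusted p = 0.0104); the call was lost without replicate 2 with DOX and DMSO, at -0.29 and an adjusted p of 0.156. OAS3 fell without DOX by 0.65 ± 0.19 (SE, adjusted p = 0.0174); the call was lost when replicate 1 or 2 with RepSox alone or replicate 3 with DMSO alone was left out, at -0.62 to -0.51 and adjusted p-values of 0.0624 to 0.0999.

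Of the 10 antiviral effectors, 5 fell with RepSox under DOX, where 25.5% of all genes were called lower, and 5 without DOX, where 12.8% were. Under DOX the count was 4 without replicate 2 with DOX and DMSO, since EIF2AK2 was then not called. MX1 and MX2 are GTPases that trap viral capsids. MX1 had 24.98, 20.1 and 21.3 CPM with DOX and RepSox, against 23.3, 44.2 and 19.9 CPM with DOX and DMSO, and 12.8, 14.7 and 17.8 CPM with RepSox alone, against 23.5, 28.4 and 33.8 CPM with DMSO alone. It fell with RepSox alone by 0.93 ± 0.22 (SE, adjusted p = 0.00396), where the groups did not overlap. With DOX its fold change was -0.41 ± 0.21 (SE, adjusted p = 0.115), and 0.02 ± 0.14 (SE, adjusted p = 0.901) without replicate 2 with DOX and DMSO. Replicates 1 and 3 with DOX and DMSO lay close to the RepSox libraries and replicate 2 above them. MX2 had 25.4, 19.7 and 23.4 CPM with DOX and RepSox, against 40.7, 104 and 37.2 CPM with DOX and DMSO, and 15.4, 15.6 and 19.1 CPM with RepSox alone, against 25.7, 38.1 and 46.3 CPM with DMSO alone. It fell by 1.42 ± 0.28 (SE, adjusted p = 0.000336) with DOX, by 0.78 ± 0.16 (SE, adjusted p = 0.000330) when replicate 2 was left out, and by 1.15 ± 0.29 (SE, adjusted p = 0.00673) without DOX. DOX in DMSO raised MX2 by 0.73 ± 0.27 (SE, adjusted p = 0.0419); the call was lost when replicate 2 with DOX and DMSO or replicate 1 or 2 with DMSO alone was left out, at 0.09 to 0.75 and adjusted p-values of 0.0860 to 0.692. RSAD2, which encodes viperin, an enzyme that makes a chain-terminating nucleotide, had 5.28, 4.75 and 3.83 CPM with DOX and RepSox, against 10.8, 20.9 and 8.77 CPM with DOX and DMSO, and 3.69, 4.37 and 4.27 CPM with RepSox alone, against 7.68, 9.22 and 10.8 CPM with DMSO alone. RepSox libraries were below DMSO libraries in both pairs, by 1.55 ± 0.24 (SE, adjusted p = 2.17e-05) with DOX and 1.17 ± 0.25 (SE, adjusted p = 0.00175) without. With replicate 2 with DOX and DMSO left out, RSAD2 had a fold change of -1.09 ± 0.15 (SE, adjusted p = 5.37e-06) for RepSox with DOX. Its neighbour CMPK2, a mitochondrial nucleotide kinase, had 21.4, 16.5 and 19.7 CPM with DOX and RepSox, against 19.0, 41.5 and 16.6 CPM with DOX and DMSO, and 15.01, 13.5 and 19.1 CPM with RepSox alone, against 20.5, 22.8 and 27.8 CPM with DMSO alone. CMPK2 was not called with RepSox, at -0.43 ± 0.24 (SE, adjusted p = 0.138) with DOX and -0.59 ± 0.24 (SE, adjusted p = 0.0854) without. Its value with DOX was 0.10 ± 0.14 (SE, adjusted p = 0.593) when replicate 2 with DOX and DMSO was left out. Exons of the pair overlap on opposite strands, so their reads can be told apart only if counting used strand. SAMD9L, a restriction factor of poxviruses, had 4.35, 4.43 and 6.03 CPM with DOX and RepSox, against 8.204, 14.8 and 8.67 CPM with DOX and DMSO, and 2.28, 2.47 and 3.86 CPM with RepSox alone, against 4.96, 4.92 and 6.50 CPM with DMSO alone. It rose with DOX in DMSO by 0.95 ± 0.21 (SE, adjusted p = 0.00144), or 0.63 ± 0.18 (SE, adjusted p = 0.00833) without replicate 2, and fell with RepSox by 1.10 ± 0.22 (SE, adjusted p = 0.000279) with DOX and 0.93 ± 0.24 (SE, adjusted p = 0.00744) without. For RepSox with DOX, SAMD9L was at -0.78 ± 0.18 (SE, adjusted p = 0.00124) when replicate 2 with DOX and DMSO was left out. Its paralog SAMD9 rose with DOX by 0.38 ± 0.11 (SE, adjusted p = 0.00883); the call was lost without replicate 1 with DMSO alone, at 0.29 and an adjusted p of 0.0660. SAMD9 fell with RepSox by 0.76 ± 0.11 (SE, adjusted p = 1.24e-05) and 0.80 ± 0.11 (SE, adjusted p = 3.89e-05) in the 2 pairs. EIF2AK2, the kinase PKR that halts translation, fell under DOX by 0.23 ± 0.10 (SE, adjusted p = 0.0493); the call was lost when replicate 1 or 2 with DOX and RepSox or replicate 1 or 2 with DOX and DMSO was left out, at -0.25 to -0.12 and adjusted p-values of 0.0645 to 0.268. BST2, which tethers budding virus, ISG20, an exonuclease, and TRIM22 were not called with RepSox in HT-29 iZEB1.

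ISG15 is a ubiquitin-like protein; UBE2L6 and HERC5 attach it to targets and USP18 removes it. ISG15 had 141, 117 and 119 CPM with DOX and RepSox, against 129, 291 and 121 CPM with DOX and DMSO, and 104, 95.8 and 124 CPM with RepSox alone, against 142, 199.6 and 193 CPM with DMSO alone. In the group with DOX and DMSO, replicates 1 and 3 lay below every library with DMSO alone and replicate 2 far above. The fold change for DOX in DMSO was 0.02 ± 0.23 (SE, adjusted p = 0.945) over all libraries and -0.51 ± 0.12 (SE, adjusted p = 0.00181) without replicate 2. RepSox alone lowered ISG15 by 0.73 ± 0.23 (SE, adjusted p = 0.0242); the call was lost when replicate 1 or 2 with RepSox alone or replicate 2 or 3 with DMSO alone was left out, at -0.71 to -0.64 and adjusted p-values of 0.0761 to 0.100. With DOX, RepSox gave -0.53 ± 0.23 (SE, adjusted p = 0.0569) over all libraries and -0.0033 ± 0.12 (SE, adjusted p = 0.985) without replicate 2. HERC6, a relative of HERC5, had 76.8, 71.4 and 75.8 CPM with DOX and RepSox, against 77.8, 141 and 72.8 CPM with DOX and DMSO, and 55.4, 50.9 and 67.5 CPM with RepSox alone, against 69.0, 81.5 and 105 CPM with DMSO alone. It fell with RepSox alone by 0.57 ± 0.19 (SE, adjusted p = 0.0343); the call was lost when replicate 1 or 2 with RepSox alone or replicate 2 or 3 with DMSO alone was left out, at -0.60 to -0.38 and adjusted p-values of 0.0588 to 0.200. HERC5 fell with RepSox under DOX by 0.80 ± 0.19 (SE, adjusted p = 0.00159) and rose with DOX in DMSO by 0.53 ± 0.19 (SE, adjusted p = 0.0303). For the rise, the call was lost when replicate 2 with DOX and DMSO or replicate 1 or 2 with DMSO alone was left out, at 0.30 to 0.43 and adjusted p-values of 0.129 to 0.190. USP18 had 14.8, 11.4 and 11.8 CPM with DOX and RepSox, against 9.27, 20.3 and 10.6 CPM with DOX and DMSO, and 10.3, 11.4 and 11.1 CPM with RepSox alone, against 12.5, 12.2 and 17.6 CPM with DMSO alone. Its groups overlapped in both the RepSox comparison with DOX and that of DOX in DMSO, and USP18 was called in neither. UBE2L6 was not called in any HT-29 iZEB1 comparison over all libraries. Without replicate 2 it was higher with RepSox under DOX, at 0.54 ± 0.17 (SE, adjusted p = 0.0114).

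The IFITM genes were not called with RepSox in HT-29 iZEB1, and IFITM1 and IFITM3 were among the members highest in replicate 2 relative to the other libraries with DOX and DMSO. IFITM1 had 28.5, 22.6 and 23.5 CPM with DOX and RepSox, against 22.02, 79.8 and 20.7 CPM with DOX and DMSO, and 18.4, 15.7 and 22.7 CPM with RepSox alone, against 16.6, 22.8 and 29.7 CPM with DMSO alone. IFITM3 had 165, 110.1 and 122 CPM with DOX and RepSox, against 127, 380.4 and 117 CPM with DOX and DMSO, and 104, 100.3 and 142 CPM with RepSox alone, against 118, 140.3 and 177 CPM with DMSO alone. In both, replicate 2 with DOX and DMSO was above the other 11 libraries, and the other 2 libraries of its group lay within the range of the other groups. RepSox under DOX gave -0.72 ± 0.35 (SE, adjusted p = 0.0919) for IFITM1 and -0.66 ± 0.31 (SE, adjusted p = 0.0793) for IFITM3, and 0.21 ± 0.17 (SE, adjusted p = 0.320) and 0.11 ± 0.16 (SE, adjusted p = 0.593) without that library. IFITM2 had 44.7, 38.5 and 36.7 CPM with DOX and RepSox, against 36.7, 61.8 and 44.7 CPM with DOX and DMSO, and 36.2, 37.8 and 42.2 CPM with RepSox alone, against 33.4, 36.6 and 36.2 CPM with DMSO alone. It rose with DOX in DMSO by 0.44 ± 0.13 (SE, adjusted p = 0.0122); the call was lost when replicate 2 with DOX and DMSO or replicate 1 with DMSO alone was left out, at 0.21 to 0.40 and adjusted p-values of 0.0535 to 0.0954. IFITM1 and IFITM2 share exonic bases on the same strand of chromosome 11 and the 3 genes are near-identical in parts, so the split of reads between them is uncertain.

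PARP9 and DTX3L form a complex that modifies histones and promotes the interferon response, and PARP14 is a related ADP-ribosyltransferase. All 3 fell with RepSox alone, by 0.59 ± 0.15 (SE, adjusted p = 0.00628) for PARP9, 0.58 ± 0.13 (SE, adjusted p = 0.00264) for PARP14 and 0.51 ± 0.10 (SE, adjusted p = 0.000761) for DTX3L. With DOX, DTX3L fell by 0.52 ± 0.10 (SE, adjusted p = 0.000176) and PARP9 by 0.39 ± 0.15 (SE, adjusted p = 0.0330); for PARP9 the call was lost when replicate 2 or 3 with DOX and RepSox or replicate 2 with DOX and DMSO was left out, at -0.39 to -0.13 and adjusted p-values of 0.0605 to 0.342. PARP14 gave -0.31 ± 0.13 (SE, adjusted p = 0.0502). PARP9 and DTX3L overlap at their divergent starts on opposite strands.

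GBP2, a GTPase that attacks the vacuoles of intracellular pathogens, had the largest fall of the members with RepSox, with and without DOX, and the largest rise with DOX in DMSO. GBP2 had 8.16, 9.10 and 9.21 CPM with DOX and RepSox, against 44.6, 48.8 and 46.0 CPM with DOX and DMSO, and 7.41, 6.93 and 6.96 CPM with RepSox alone, against 18.8, 19.2 and 17.9 CPM with DMSO alone. No 2 of the 4 groups overlapped, and every library with DOX and DMSO was above every other library. GBP2 fell by 2.41 ± 0.08 (SE, adjusted p = 7.41e-14) with DOX and 1.40 ± 0.08 (SE, adjusted p = 2.39e-09) without, and rose with DOX in DMSO by 1.32 ± 0.08 (SE, adjusted p = 8.46e-11). Without replicate 2 the first and the last were -2.37 ± 0.08 (SE, adjusted p = 2.60e-14) and 1.29 ± 0.08 (SE, adjusted p = 9.24e-11). GBP2 lies at chr1:89106132-89150456 on the minus strand and shares exonic bases with GBP7 on the same strand. GBP1 rose with DOX in DMSO by 0.80 ± 0.20 (SE, adjusted p = 0.00313), at a mean of 3.72 ± 1.03 CPM with DOX and DMSO against 2.14 ± 0.384 CPM with DMSO alone (SD, n = 3 each), and was not called with RepSox.

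The remaining genes include the most abundant members. Per length of exon, with DMSO alone, IFI6 led at 339.5 RPKM, followed by BST2 at 240.2, ISG15 at 189, IFITM3 at 108 and IFI27 at 104, while TRIM22 at 0.421 and GBP1 at 0.428 were lowest. IFI6, a membrane protein that restricts flaviviruses, had 274, 204 and 199 CPM with DOX and RepSox, against 254, 589 and 208 CPM with DOX and DMSO, and 178, 195 and 231 CPM with RepSox alone, against 255, 291 and 335 CPM with DMSO alone. It fell with RepSox under DOX by 0.64 ± 0.25 (SE, adjusted p = 0.0384); the call was lost when replicate 2 or 3 with DOX and RepSox or replicate 2 with DOX and DMSO was left out, at -0.57 to -0.04 and adjusted p-values of 0.0994 to 0.803. RepSox alone gave -0.55 ± 0.25 (SE, adjusted p = 0.119), although the groups did not overlap. IFI27 had 366, 275 and 255 CPM with DOX and RepSox, against 435, 752 and 337 CPM with DOX and DMSO, and 277, 269 and 338 CPM with RepSox alone, against 404, 441 and 451 CPM with DMSO alone. It fell by 0.78 ± 0.19 (SE, adjusted p = 0.00250) with DOX, by 0.38 ± 0.12 (SE, adjusted p = 0.0138) there when replicate 2 with DOX and DMSO was left out, and by 0.56 ± 0.19 (SE, adjusted p = 0.0413) without DOX; in the comparison without DOX the call was lost when replicate 1 or 2 with RepSox alone or replicate 1, 2 or 3 with DMSO alone was left out, at -0.61 to -0.49 and adjusted p-values of 0.0651 to 0.142. IFI44L had 46.5, 40.7 and 47.9 CPM with DOX and RepSox, against 63.9, 137 and 56.4 CPM with DOX and DMSO, and 28.2, 27.8 and 41.9 CPM with RepSox alone, against 38.0, 48.8 and 75.5 CPM with DMSO alone. It rose with DOX in DMSO by 0.67 ± 0.26 (SE, adjusted p = 0.0498); the call was lost when replicate 2 with DOX and DMSO or replicate 1 or 2 with DMSO alone was left out, at 0.16 to 0.60 and adjusted p-values of 0.149 to 0.548. It fell with RepSox under DOX by 0.94 ± 0.26 (SE, adjusted p = 0.00599); the call was lost without replicate 2 with DOX and DMSO, at -0.43 and an adjusted p of 0.0672. IFI44 had 74.2, 67.4 and 76.1 CPM with DOX and RepSox, against 96.1, 151 and 83.5 CPM with DOX and DMSO, and 50.1, 50.3 and 67.3 CPM with RepSox alone, against 67.1, 89.0 and 105 CPM with DMSO alone. IFI44 fell by 0.61 ± 0.17 (SE, adjusted p = 0.00658) with DOX; the call was lost without replicate 2 with DOX and DMSO, at -0.32 and an adjusted p of 0.0563. Without DOX it fell by 0.64 ± 0.18 (SE, adjusted p = 0.0114); the call was lost when replicate 1 or 2 with RepSox alone or replicate 3 with DMSO alone was left out, at -0.57 to -0.49 and adjusted p-values of 0.0581 to 0.0800. IFI35, a partner of NMI in innate signalling, fell by 0.88 ± 0.14 (SE, adjusted p = 4.46e-05) with DOX and 0.68 ± 0.14 (SE, adjusted p = 0.00184) without. Leaving out replicate 2 with DOX and DMSO made the fold change with DOX -0.62 ± 0.10 (SE, adjusted p = 3.23e-05). IFI35 rose with DOX in DMSO by 0.37 ± 0.14 (SE, adjusted p = 0.0439). For the rise, the call was lost when replicate 2 with DOX and DMSO or replicate 1, 2 or 3 with DMSO alone was left out, at 0.11 to 0.40 and adjusted p-values of 0.0727 to 0.397. XAF1, a pro-apoptotic antagonist of XIAP, was called in none of these comparisons.

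SW620 held far less of most of these RNAs, and no member at 5 CPM or more there differed by 1.5 times between replicates. GBP2 had 1.43, 1.28 and 1.13 CPM in SW620 with RepSox, against 3.37, 3.06 and 2.14 CPM in SW620 with DMSO. IFIT2 had 1.76, 1.10 and 0.974 CPM in SW620 with RepSox, against 3.16, 1.98 and 2.19 CPM in SW620 with DMSO. GBP2 fell with RepSox by 1.15 ± 0.20 (SE, adjusted p = 0.000143) and IFIT2 by 0.93 ± 0.23 (SE, adjusted p = 0.00500), with no overlap of the groups; for IFIT2 the call was lost without replicate 1 with DMSO in SW620, at -0.70 and an adjusted p of 0.0504. HERC6 had 2.18, 2.36 and 2.34 CPM in SW620 with RepSox, against 3.60, 3.96 and 4.50 CPM in SW620 with DMSO. IRF7 had 3.03, 2.23 and 2.92 CPM in SW620 with RepSox, against 4.87, 4.86 and 4.40 CPM in SW620 with DMSO. They fell by 0.81 ± 0.15 (SE, adjusted p = 0.000315) and 0.79 ± 0.14 (SE, adjusted p = 0.000248), again with separate groups. IFI6 had 2.93, 1.85 and 2.37 CPM in SW620 with RepSox, against 3.88, 3.67 and 4.12 CPM in SW620 with DMSO. USP18 had 1.97, 2.69 and 2.95 CPM in SW620 with RepSox, against 4.21, 4.06 and 3.92 CPM in SW620 with DMSO. IFI6 fell by 0.71 ± 0.16 (SE, adjusted p = 0.00257) and USP18 by 0.68 ± 0.16 (SE, adjusted p = 0.00252), so that a gene not called with RepSox in HT-29 iZEB1 was called here. The difference between the lines was tested for USP18 and did not pass, at -0.31 ± 0.32 (SE, adjusted p = 0.631). OAS1 had 12.9, 13.8 and 13.6 CPM in SW620 with RepSox, against 17.3, 15.4 and 16.7 CPM in SW620 with DMSO. It fell by 0.30 ± 0.08 (SE, adjusted p = 0.00826); the call was lost without replicate 1 with RepSox in SW620, at -0.27 and an adjusted p of 0.0516. BST2 fell by 0.63 ± 0.16 (SE, adjusted p = 0.00595). DDX58 had 6.01, 4.74 and 4.58 CPM in SW620 with RepSox, against 4.62, 3.19 and 3.62 CPM in SW620 with DMSO. It was the member that rose, by 0.42 ± 0.15 (SE, adjusted p = 0.0418), with 1 DMSO library above 1 RepSox library; the call was lost when replicate 1 or 2 with RepSox in SW620 or replicate 2 or 3 with DMSO in SW620 was left out, at 0.29 to 0.47 and adjusted p-values of 0.0598 to 0.256. Smaller falls were called for OAS2, where the call was lost when replicate 2 or 3 with RepSox in SW620 or replicate 2 or 3 with DMSO in SW620 was left out, at -0.41 to -0.34 and adjusted p-values of 0.0659 to 0.123, for SAMD9, where the call was lost when replicate 2 or 3 with RepSox in SW620 or replicate 1, 2 or 3 with DMSO in SW620 was left out, at -0.38 to -0.27 and adjusted p-values of 0.0664 to 0.189, and for IFIT5, where the call was lost without replicate 3 with RepSox in SW620, at -0.23 and an adjusted p of 0.0630. ISG15, MX1, IRF1 and STAT2 were not called. ISG15 had 14.5, 17.03 and 16.5 CPM in SW620 with RepSox, against 18.1, 16.6 and 13.8 CPM in SW620 with DMSO. MX1 had 6.01, 6.00 and 5.48 CPM in SW620 with RepSox, against 5.54, 6.19 and 5.98 CPM in SW620 with DMSO. STAT2 had 35.0, 37.2 and 36.8 CPM in SW620 with RepSox, against 38.3, 40.6 and 35.4 CPM in SW620 with DMSO. The groups overlapped for all 3, with log2 fold changes of -0.01 ± 0.09 (SE, adjusted p = 0.958) for ISG15, -0.02 ± 0.11 (SE, adjusted p = 0.942) for MX1 and -0.07 ± 0.06 (SE, adjusted p = 0.493) for STAT2. IRF1 had 20.4, 23.1 and 20.8 CPM in SW620 with RepSox, against 21.7, 21.8 and 19.9 CPM in SW620 with DMSO. IRF9 had 0.622, 0.615 and 1.58 CPM in SW620 with RepSox, against 1.45, 1.34 and 1.43 CPM in SW620 with DMSO. Both had overlapping groups, and neither was called.

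A direct test of the RepSox response in SW620 minus that in HT-29 iZEB1 without DOX called 2 of the 44 members, where 5.39% of all genes were called in the same direction and 4.99% in the other. They were DDX58, with a difference of 1.13 ± 0.23 (SE, adjusted p = 0.00187), and STAT2, with 0.47 ± 0.13 (SE, adjusted p = 0.0191). The call of STAT2 was lost without replicate 3 with DMSO alone, at 0.40 and an adjusted p of 0.0538. For the other 42 members the responses of the 2 lines were not shown to differ.

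Set against HT-29 iZEB1 with DMSO alone, SW620 with DMSO lacked counts for 5 members. IFI44, with 0 counts over the 3 SW620 libraries and a mean of 86.9 ± 18.8 CPM (SD, n = 3) in HT-29 iZEB1, was at least 3415-fold lower against a floor of 3 counts over the group. By the same reckoning CMPK2 was at least 932-fold lower, RSAD2 at least 362-fold, SAMD9L at least 215-fold and XAF1 at least 184-fold. IFI44L had 1 count in all and TRIM22 had 2. IFI27 had 0.570, 0.513 and 0.395 CPM in SW620 with RepSox, against 0.306, 0.360 and 0.226 CPM in SW620 with DMSO, which was -10.49 ± 0.33 (SE, adjusted p = 1.01e-19) on the log2 scale relative to HT-29 iZEB1. IFIT1 had 0.441, 0.718 and 0.974 CPM in SW620 with RepSox, against 1.56, 0.822 and 1.26 CPM in SW620 with DMSO, a log2 difference of -6.77 ± 0.24 (SE, adjusted p = 2.35e-18). BST2 followed at -6.38 ± 0.16 (SE, adjusted p = 1.98e-21) and IFI6 at -6.24 ± 0.31 (SE, adjusted p = 1.42e-15). The factors differed less than the genes just named, with -3.84 ± 0.17 (SE, adjusted p = 1.17e-16) for IRF7, -2.35 ± 0.22 (SE, adjusted p = 3.54e-10) for IRF9, -0.63 ± 0.09 (SE, adjusted p = 9.13e-07) for STAT2 and -0.47 ± 0.08 (SE, adjusted p = 2.22e-05) for IRF1. IRF7 still lay below the median of all members, which was -3.63. IFITM2 had 66.2, 70.2 and 75.6 CPM in SW620 with RepSox, against 88.3, 90.1 and 75.4 CPM in SW620 with DMSO. It was higher in SW620 by 1.26 ± 0.12 (SE, adjusted p = 9.70e-10), and RepSox lowered it there by 0.26 ± 0.06 (SE, adjusted p = 0.00365). IFITM3 had 102, 111 and 112 CPM in SW620 with RepSox, against 111, 119.9 and 108 CPM in SW620 with DMSO, and the lines differed by -0.37 ± 0.27 (SE, adjusted p = 0.222), which did not pass. IFITM1 had 0, 0 and 0.0790 CPM in SW620 with RepSox, against 0.102, 0.0771 and 0 CPM in SW620 with DMSO, with 3 counts over the SW620 libraries with RepSox.

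Among 42 other genes of the pathway, from ligands to inhibitors, 33 had enough counts to test in HT-29 iZEB1. Interferon genes were hardly detected: IFNE, an epithelial type I interferon, had the most, with 298 counts summed over the 3 libraries with DOX and DMSO against 180 with DMSO alone, and IFNA2, IFNG and IFNK had none in any library. IFNB1 had at most 10 counts over the 3 libraries of a group. The type III gene IFNL1 had at most 42, with DMSO alone, against 14 with DOX and DMSO. Of the 10 ligands only IFNE and IFNL1 had enough counts to test. For DOX in DMSO the log2 fold change of IFNE was 0.56 and was not called, and that of IFNL1 was -1.72 and was called lower. With DOX in DMSO 9 of the 33 pathway genes rose and 7 fell, where 19.2% of all genes were called higher and 21.1% lower. STING1, the adaptor of the cytosolic DNA pathway, had 28.5, 24.2 and 24.4 CPM with DOX and RepSox, against 56.6, 73.9 and 62.4 CPM with DOX and DMSO, and 26.8, 23.9 and 26.1 CPM with RepSox alone, against 35.3, 33.2 and 33.0 CPM with DMSO alone. All libraries with DOX and DMSO lay above the rest, and STING1 rose by 0.93 ± 0.09 (SE, adjusted p = 1.66e-07) with DOX and fell with RepSox by 1.33 ± 0.09 (SE, adjusted p = 1.04e-09) with DOX and 0.41 ± 0.09 (SE, adjusted p = 0.00336) without. The sensor CGAS, which acts through STING1, went the other way. CGAS had 14.3, 16.6 and 15.9 CPM with DOX and RepSox, against 10.1, 10.1 and 10.1 CPM with DOX and DMSO, and 17.5, 14.8 and 16.6 CPM with RepSox alone, against 15.3, 15.8 and 13.7 CPM with DMSO alone. It fell by 0.56 ± 0.09 (SE, adjusted p = 7.69e-05) with DOX in DMSO and rose by 0.62 ± 0.09 (SE, adjusted p = 1.63e-05) with RepSox under DOX. Of the receptor chains, IFNGR2 rose with DOX by 0.58 ± 0.07 (SE, adjusted p = 2.76e-06) and IFNLR1, the type III chain, fell by 1.81 ± 0.17 (SE, adjusted p = 6.11e-08); the factor IRF5 fell by 0.89 ± 0.10 (SE, adjusted p = 8.01e-07) and the kinase JAK2 rose by 0.58 ± 0.11 (SE, adjusted p = 0.000476). With RepSox 5 of the 33 rose and 15 fell with DOX, where 26.8% of all genes were called higher and 25.5% lower. Without DOX 1 rose and 11 fell, where 12.5% of all genes were called higher and 12.8% lower. DHX58, a regulator of RIG-I, fell in both, by 0.88 ± 0.19 (SE, adjusted p = 0.000568) with DOX and 0.74 ± 0.19 (SE, adjusted p = 0.00745) without, and TRAF3, an adaptor of interferon induction, rose in both, by 0.66 ± 0.06 (SE, adjusted p = 7.41e-08) and 0.43 ± 0.06 (SE, adjusted p = 6.22e-05). Under RepSox, none of the 33 was called with DOX. Without replicate 2 with DOX and DMSO, 7 rose and 9 fell of 34 with DOX in DMSO, where 18.6% of all genes were called higher and 22% lower, and 5 rose and 14 fell with RepSox under DOX, where 26% were called higher and 24.1% lower. In SW620, 3 rose and 3 fell with RepSox of 28 pathway genes tested, where 10.2% of all genes were called higher and 9.24% lower. Among them were NLRC5, the transactivator of MHC class I, which rose by 0.69 ± 0.09 (SE, adjusted p = 5.73e-06), and STING1, which fell by 0.40 ± 0.09 (SE, adjusted p = 0.00357). Between the lines with DMSO, 14 of 33 were higher and 16 lower in SW620, where 40.1% of all genes were called higher and 36.5% lower. CGAS was -8.11 ± 0.26 (SE, adjusted p = 1.62e-19) on the log2 scale and SOCS3, an inhibitor of JAK signalling, 4.32 ± 0.32 (SE, adjusted p = 4.26e-12).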

How the data were processed

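RNA was extracted with a kit, treated with DNase and sequenced on the BGISEQ-500, per the labels' protocols. The authors deposited a table of raw read counts per gene symbol; the submitters' processing notes name FastQC 0.11.9, HISAT2 2.2.0, featureCounts 2.0.0, DESeq2 1.34.0 and the build GRCh38.p13, while neither annotation release nor strand setting was given in the sources used here. Groups came from the labels. The 44 members and the other lists were chosen with earlier results of these data known.

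All genes were fitted with edgeR 4.0.16 (R 4.3.3; TMM scaling, filterByExpr with a minimum count of 10, quasi-likelihood test), in 1 fit of the 12 HT-29 iZEB1 libraries, 1 of the 6 SW620 libraries and 1 of all 18 for comparisons between lines. The 8 comparisons were each adjusted by Benjamini-Hochberg over all genes tested, and genes below 0.05 were called. Each SE is |log2 fold change| over the root of its F statistic. CPM use 1 TMM scale over the 18 libraries, and deviations within groups use log2(CPM + 0.5). Levels per length divide by the exon length in GENCODE 29. At 36512000 to 39793000 counts per library, counting error is small for members at 5 CPM or more and large for those with a few counts. Bounds for counts of 0 use a floor of 3 counts over a group and cover counting error only. No 2 libraries of a group agreed within sampling noise: the chi-square per degree of freedom over genes was 3.93 to 42.6 between replicates. The edgeR fits were tested on simulated data. Alternatives were DESeq2 1.42.0, RLE scaling, library totals alone, no filter on low counts, only the groups compared, a replicate block, and leaving out each library in turn. Library values are printed for members at 5 CPM or more among the 6 largest rises or falls called in a comparison and for 13 members fixed by name; DDX58 was matched to its RefSeq symbol RIGI for promoters. One leukocyte marker is not reported here.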

Additional observations from a re-analysis of the deposited data

Results flagged for a closer look

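Of the 44 members, 2 had a RepSox response in HT-29 iZEB1 that differed between cells with and without DOX in the test of the difference itself. In that test 22.6% of all genes were called, 13% higher and 9.61% lower. GBP2 differed by -1.01 on the log2 scale and STAT2 by -0.70, so both fell further under DOX. ZEB1 averaged 378 CPM with DOX and DMSO and 16.0 CPM with DOX and RepSox, and its part in this difference was not tested. The calls of GBP2 and STAT2 both held when each library was left out in turn.

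For the RepSox response of SW620 minus that of HT-29 iZEB1 without DOX, again 2 members were called. Of all genes 10.4% were called there, 5.39% higher and 4.99% lower. DDX58 differed by 1.13 and was the member that rose in SW620 while it fell in HT-29 iZEB1. STAT2 differed by 0.47; it fell in HT-29 iZEB1, and in SW620 its groups overlapped. The call of STAT2 was lost without replicate 3 with DMSO alone, at 0.40 and an adjusted p of 0.0538, in edgeR's quasi-likelihood test.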

How the results depend on the processing

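Between scaling by TMM, RLE size factors and library totals alone, every count of called members stayed within 1.5 times its value. For DOX in DMSO (14 members), DESeq2 called 9, edgeR with no filter on low counts 24, and leaving out each library in turn 6 to 22. RepSox with DOX (27) gave 41 with no filter and 21 to 37 without single libraries; RepSox without DOX (27) gave 21 to 29 without single libraries. DOX in RepSox (0) gave 2 in DESeq2, 18 with no filter, 3 when only the groups compared were fitted, and 0 to 4 without single libraries. The test of DOX by RepSox (2) gave 10 with no filter, 5 in each direction, and 2 to 16 without single libraries. RepSox in SW620 (19) gave 16 to 18 without single libraries, and the line difference 43 in each. The RepSox response of SW620 minus HT-29 iZEB1 (2) gave 4 in DESeq2, 12 with no filter, 12 with only the groups compared and 1 to 4 without single libraries. The cause of these differences was not tested. The shares of all genes called under these settings, and under the replicate block below, are not given beside the counts. The counts therefore do not set the members apart from other genes. No gene called over all libraries was called in the opposite direction, but new calls changed the balance of directions. Without replicate 2 with DOX and DMSO, DOX in DMSO went from 14 higher and 0 lower to 7 higher and 10 lower. The test of DOX by RepSox then had 14 higher and 2 lower, and UBE2L6 was newly called higher for RepSox with DOX. Of 141 single-gene calls, DESeq2 lost 15, only the groups compared 5, library totals alone 1 and the replicate block 1.

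Deviations of same-numbered libraries between HT-29 iZEB1 groups had r of -0.529 to 0.386, with a median of 0.078, against -0.045 for other numbers. Deviations from means of 3 libraries constrain each other, so they cannot decide whether the numbers pair libraries. With a replicate block the 8 counts were 14, 27, 29, 0, 2, 19, 43 and 3, in the order DOX in DMSO, RepSox with DOX, RepSox without DOX, DOX in RepSox, DOX by RepSox, RepSox in SW620, the lines, and the response difference. In SW620, members with 0 to 3 counts limit what can be detected.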
